A study of Mus musculus with 6 samples.

Results

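The 44 protein-coding genes of the mouse collagen chains were taken from a table of read counts of the aorta. Members were chosen by symbol alone, as every gene named Col, a number, a and a number, and they make up 44 of 55401 gene IDs in the table. They fall into 11 fibrillar chains, 6 basement membrane chains, 9 fibril-associated chains with interrupted helices (FACIT), 6 chains of the microfibrillar type VI, and 12 chains of other types. The aortas came from mice lacking apolipoprotein E (ApoE-/-) and from mice lacking both interleukin-16 and apolipoprotein E (IL16-/-ApoE-/-, called double mutants here), with 3 samples each. All mice carried the Apoe deletion and were put on a high-fat diet at 8 weeks of age for 24 weeks. Strain background, sex, the deleted parts of the genes, the stretch of aorta taken and whether numbered samples were separate animals are unstated in the labels. The p-values therefore describe variation among these 6 samples, which may be technical. The series asks how loss of interleukin-16 alters expression after that diet.

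A collagen molecule is made of 3 chains wound into a triple helix, built from repeats in which a glycine is followed by 2 other residues. Types I, III and V form the banded fibrils that carry load in the adventitia and media. Type IV forms the sheet-like network of basement membranes around smooth muscle and under endothelium, type VI forms beaded microfibrils between cells and matrix, and FACIT chains decorate fibril surfaces. Collagen is a major component of the atherosclerotic plaque and of its fibrous cap.

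Libraries held 42861980 to 85568269 counts, with every ApoE-/- library deeper than every double mutant library. Levels are given as CPM, a gene's counts scaled to a common library size, and the values of a group follow the sample numbers 1, 2 and 3. Il16 was at 28.3, 28.7 and 15.1 CPM in ApoE-/- against 7.93, 12.1 and 12.2 CPM in double mutants. The groups did not overlap, and the log2 fold change of -1.16 had an adjusted p of 0.163 by edgeR's quasi-likelihood test. Apoe, deleted in all mice, kept transcripts and was higher in double mutants (45.0, 24.9 and 20.9 against 138, 183 and 137 CPM, adjusted p = 0.0369 by edgeR). Since the deleted parts are not stated, these levels are a limited check of the labels. The ApoE-/- libraries differed far more among themselves than the double mutants did (biological coefficient of variation 0.593 and 0.209). ApoE-/- 1 stood apart in sex-linked transcripts, with Xist at 474 CPM and the Y-linked Ddx3y at 0.143 CPM. In the other 5 libraries Xist was at 0.497 to 6.21 CPM and Ddx3y at 70.1 to 136 CPM. Smooth muscle markers were present in all 6 libraries, and the summed level of 8 of them was 4349.8 CPM in ApoE-/- 1, 19211 CPM in ApoE-/- 2, 27627 CPM in ApoE-/- 3 and 8684 to 9845.5 CPM in the double mutants. Summed adipocyte markers were 4603, 620 and 583 CPM in ApoE-/- against 4418 to 4753 CPM in double mutants. Macrophage markers summed to 4435, 2263 and 380 CPM against 4131 to 5905 CPM. In both sums ApoE-/- 1 lay within the double mutant range and ApoE-/- 2 and 3 lay below it. Single markers did not all follow the sums. In ApoE-/- 1, Adipoq (541 against 324 to 380 CPM) and Mrc1 (243 against 83.2 to 120 CPM) lay above the double mutants. Fabp4 (3002 against 3402 to 3635 CPM) and Cd68 (158 against 264 to 338 CPM) lay below them in that library. For Mrc1, ApoE-/- 2 was also above every double mutant, at 156 CPM. In a bulk sample, fewer cells of a type and less RNA per cell cannot be told apart. Results are therefore given with all 6 libraries and without ApoE-/- 1, which leaves 2 libraries in that group, both with the male pattern of Xist and Ddx3y, as in the double mutants. Those 2 libraries lay above every double mutant in the smooth muscle sum, where ApoE-/- 1 lay below every double mutant. In the adipocyte and macrophage sums ApoE-/- 2 and 3 were the ones furthest from the double mutants.

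With all 6 libraries in, none of the 41 collagen genes kept by the count filter passed the threshold. It was an adjusted p of 0.05 (Benjamini-Hochberg over 19833 tested genes) in edgeR's quasi-likelihood test. In this comparison 1.14% of all tested genes were called higher and 0.0605% lower in the double mutants. At an unadjusted p under 0.05 there was 1 member higher (Col22a1, background 8.87%) and 1 lower (Col19a1, background 7.03%). DESeq2 also called 0 members, with 6.23% of all genes higher and 2.33% lower, as did limma-voom, with 1.95% and 0.116%. Limma-voom with sample weights called 1 member higher (Col6a5) and 6 lower (Col4a3, Col4a4, Col4a5, Col4a6, Col18a1 and Col19a1), where 9.39% and 7.5% of all genes were called. Log2 fold changes were positive in 17 members and negative in 24, with a median of -0.16 against -0.05 over all tested genes. All 3 double mutant libraries lay above all ApoE-/- libraries in 6 members (background 14.9%) and below them in 2 (background 11.5%).

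Without ApoE-/- 1, 14 of 41 members were lower and 2 higher in the double mutants, against 12.8% and 13.1% of 20177 tested genes called in these directions. The 14 were the 6 type IV chains, Col5a1, Col11a2, Col6a1, Col6a2, Col15a1, Col18a1, Col19a1 and Col20a1, and the 2 were Col5a3 and Col6a5. The 14 make 34.1% of the members. The same fit called 7 of 8 smooth muscle markers lower and 6 of 6 adipocyte, 6 of 6 endothelial and 6 of 6 kidney tubule markers higher. The part that these marker differences play in the collagen values was not tested.

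**Figure D1:**
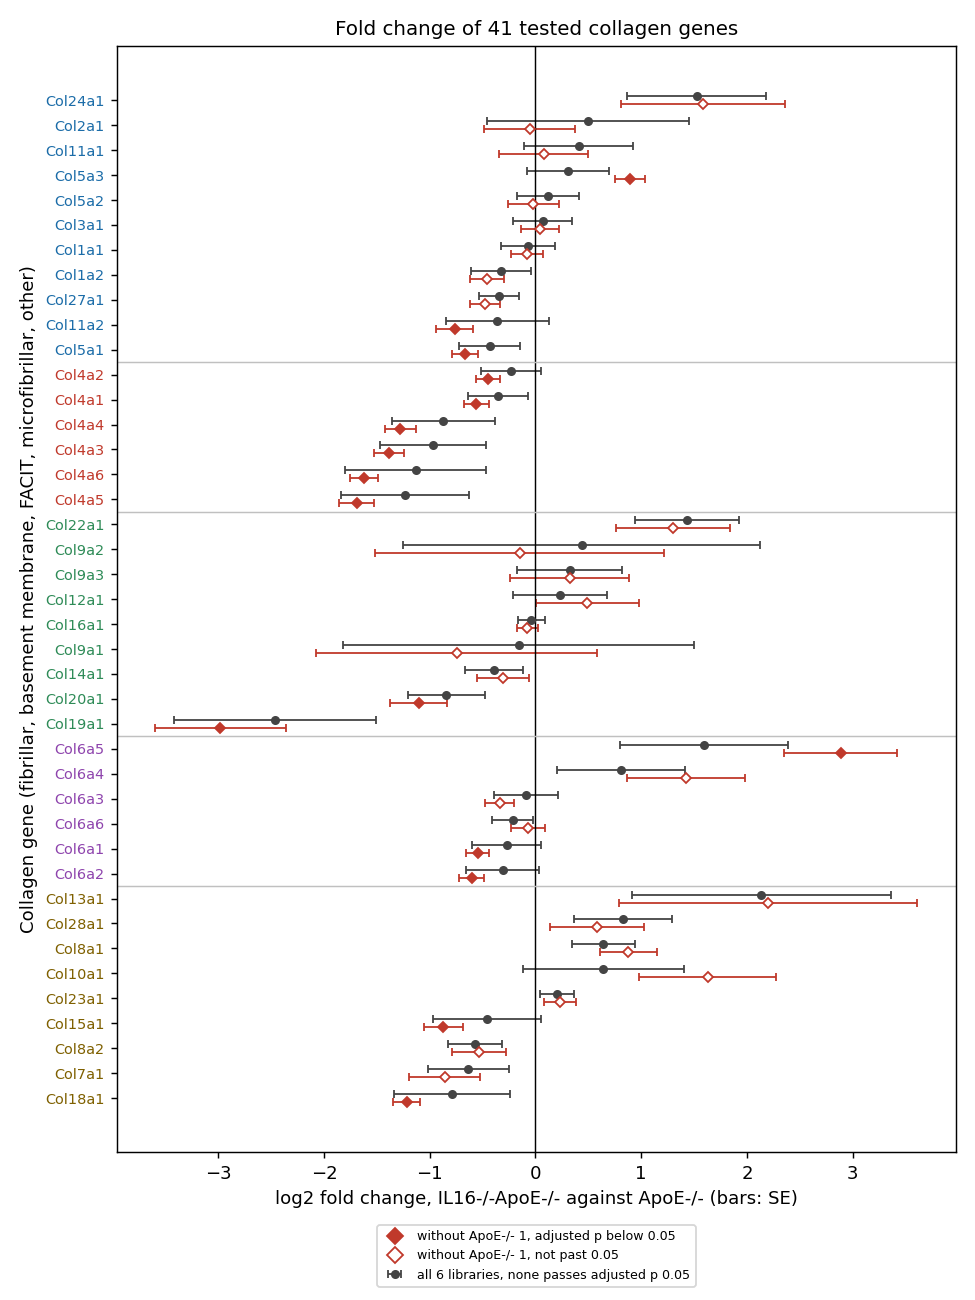
Log2 fold change (x axis, double mutants against ApoE-/-, bars SE) of the 41 tested collagen genes (y axis, in 5 classes), with all 6 libraries (circles) and without ApoE-/- 1 (diamonds, filled where the adjusted p is below 0.05). No circle passes, while 16 diamonds are filled and all 6 type IV chains lie to the left of 0 in both fits.

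The 44 chains together took 0.940% to 1.56% of a library's counts. The share was 0.940%, 1.56% and 1.28% in ApoE-/- against 1.01%, 1.17% and 1.08% in double mutants, so the groups overlapped. By level per transcript length (CPM per kilobase, mean of 6 libraries) the leading chains were Col3a1 (479.5), Col1a2 (353) and Col1a1 (256), then Col18a1 (169), Col4a1 (119), Col6a1 (112) and Col6a2 (107). The fibrillar class summed to 1131 to 1426 CPM per kilobase in ApoE-/- against 1082 to 1307 in double mutants, the narrowest relative range of the 5 classes in the ApoE-/- group. The basement membrane class summed to 176, 351 and 381 CPM per kilobase in ApoE-/- 1, 2 and 3, while all double mutants lay at 214 to 225.

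Among members, 26 of 41 differed at least 2-fold between the highest and lowest ApoE-/- library (63.4%, against 49.9% of all tested genes), and 7 did so among the double mutants (17.1%, against 19.5%). In 13 members ApoE-/- 1 lay below every double mutant while ApoE-/- 2 and 3 lay above every double mutant (31.7%, against 10.4% of all tested genes). This order, chosen after the values were seen, was shared by all 6 type IV chains, Col6a1, Col6a2, Col6a3, Col5a1, Col11a2, Col15a1 and Col18a1. The opposite order was found in Col5a3 and Col10a1 (4.88%, against 9.77%).

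**Figure D2:**
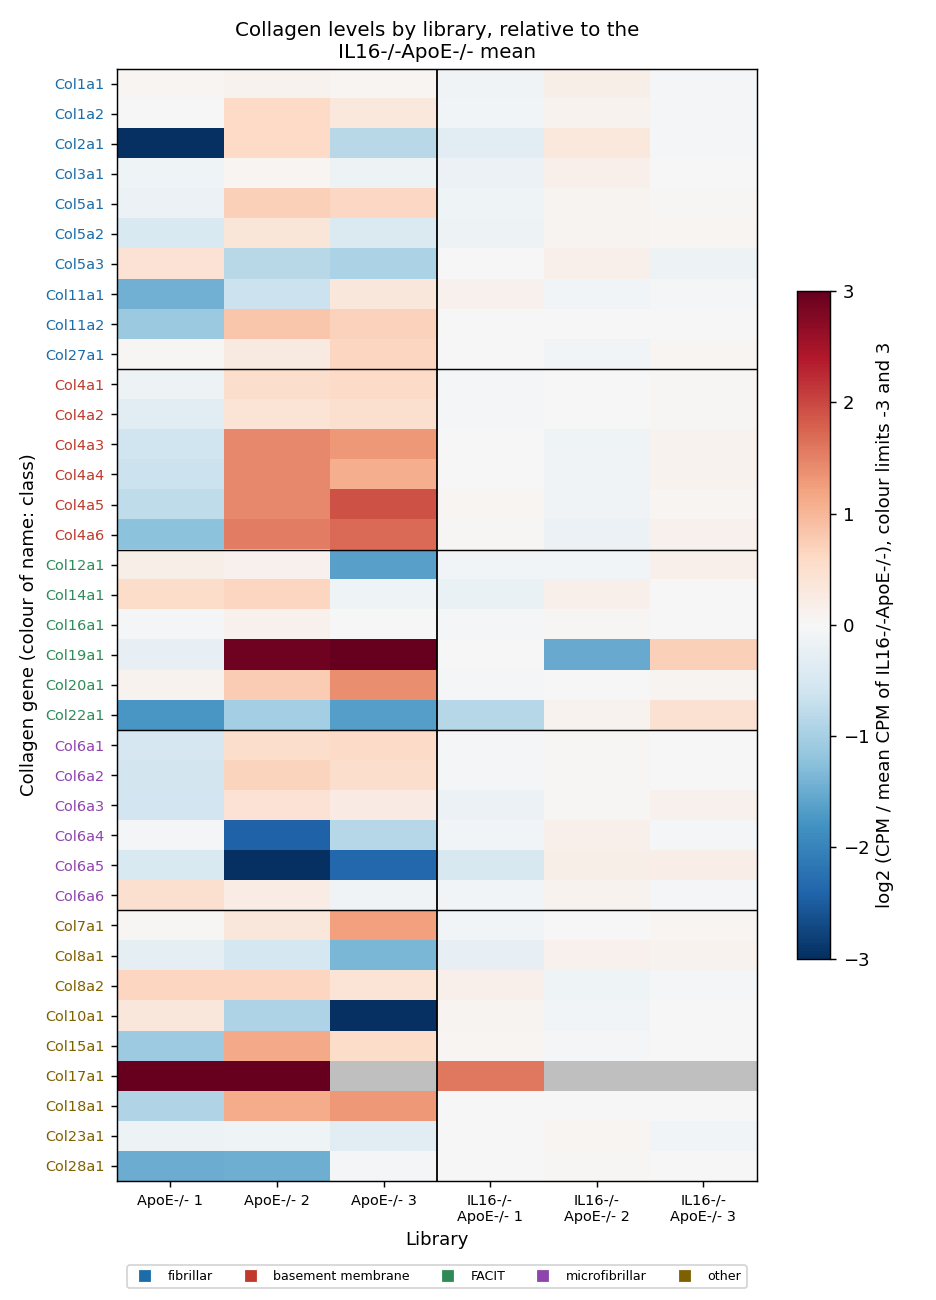
Level of each collagen gene with a mean of at least 1 CPM (rows, grouped by class) in each of the 6 libraries (columns), as log2 of its CPM over the double mutant mean, with grey where the count was 0. The type IV rows are blue in ApoE-/- 1 and red in ApoE-/- 2 and 3, whereas Col1a1 and Col3a1 stay near white in all 6 columns.

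The major fibrillar chains differed little between groups. Col3a1 (chromosome 1, 45311538 to 45349706, GRCm38), the single chain of type III collagen, was at 2515, 2832 and 2467 CPM in ApoE-/- against 2416, 3048 and 2731 CPM in double mutants. The groups overlapped throughout, with a log2 fold change of 0.07 (SE 0.28, n = 3 and 3, edgeR adjusted p = 0.921). Col1a1 (chromosome 11, 94936224 to 94953042), the chain of which type I collagen holds a pair, was at 1535, 1587 and 1548 CPM against 1370.05, 1667 and 1418 CPM (log2 fold change -0.07, SE 0.25, edgeR adjusted p = 0.912). Its partner Col1a2 (chromosome 6) was at 1697, 2517 and 2090.5 CPM against 1591, 1817 and 1619 CPM. The highest 2 values of Col1a2 were those of ApoE-/- 2 and 3, and the groups overlapped through ApoE-/- 1 (log2 fold change -0.33, SE 0.29, edgeR adjusted p = 0.598). An SE of this size leaves room for a change of Col1a1 or Col3a1 in either direction, so the values do not show that these levels are equal.

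Type V collagen, which sits in the core of type I fibrils and limits their width, was split. Col5a1 was at 300.1, 559 and 522 CPM in ApoE-/- against 314, 359.6 and 349.98 CPM in double mutants, so ApoE-/- 2 and 3 were high and ApoE-/- 1 lay just below the double mutants. Its log2 fold change was -0.67 without ApoE-/- 1 (SE 0.12, n = 2 and 3, edgeR adjusted p = 0.0132), against -0.43 (SE 0.29, adjusted p = 0.491) with all libraries. Col5a2 was at 342, 601 and 349.5 CPM against 425, 497 and 485 CPM, with only ApoE-/- 2 above the double mutants. Col5a3, the less abundant type V chain, was at 49.7, 20.6 and 19.1 CPM against 36.3, 41.1 and 33.2 CPM. Here ApoE-/- 1 was the highest library and ApoE-/- 2 and 3 the lowest, and without ApoE-/- 1 the gene was higher in double mutants (log2 fold change 0.89, SE 0.14, edgeR adjusted p = 0.00841).

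The cartilage-type fibrillar chains were at low levels. Col2a1, the main fibril collagen of cartilage, was at 1.53, 42.97 and 16.1 CPM in ApoE-/- against 22.5, 35.7 and 27.3 CPM in double mutants, a 28.1-fold range within ApoE-/-. Of 8 cartilage markers, 7 were tested and 0 called with all libraries. Comp and Chad had all double mutant above all ApoE-/- libraries (background 14.9%), and the defining Matn1 had no count in any library. Without ApoE-/- 1, Chad was called higher (log2 fold change 1.66, SE 0.34, edgeR adjusted p = 0.0196) and Hapln1 lower (-1.40, SE 0.32, adjusted p = 0.0268). The summed markers were 74.6, 133 and 80.4 CPM against 95.8, 106 and 103 CPM, highest in ApoE-/- 2 and overlapping between groups, and their part in the Col2a1 values was not tested. Col11a2 was at 3.07, 11.7 and 10.7 CPM against 6.51 to 6.66 CPM and fell without ApoE-/- 1 (log2 fold change -0.76, SE 0.18, edgeR adjusted p = 0.0275). Col11a1, at 0.597 to 2.04 CPM, overlapped between groups, as did Col27a1 at 42.1 to 70.5 CPM. Col24a1 was at 0.137 to 0.459 CPM in ApoE-/- and at 0.582 to 1.36 CPM in double mutants, without overlap but on only 11 to 65 counts a library (log2 fold change 1.53, SE 0.66, edgeR adjusted p = 0.325).

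All 6 basement membrane chains had negative log2 fold changes, and in all 6 the ApoE-/- libraries spanned the double mutants. Type IV molecules are built from fixed sets of chains: Col4a1 with Col4a2 in nearly all basement membranes, Col4a3 with Col4a4 and Col4a5 in the kidney glomerulus and some other sites, and Col4a5 with Col4a6 in smooth muscle and other tissues. The 6 genes form 3 head-to-head pairs. By the GENCODE M21 annotation of GRCm38, the start sites of Col4a1 (minus strand) and Col4a2 (plus strand) on chromosome 8 lie so close that the 2 genes share 22 bases. Col4a4 and Col4a3 on chromosome 1 start 71 bases apart, and Col4a6 and Col4a5 on the X chromosome 1308 bases apart.

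The promoter windows of 5 of these genes (all but Col4a3), from 250 bases before to 50 after the start site, are shown because neighbouring genes moved together across libraries, beside that of Col3a1, whose level stayed near constant. They are RefSeq sequences of GRCm38.p6, written 5′ to 3′ on the strand of the gene, with capitals marking 3 motifs searched on both strands: the letters CCAAT, the GC box letters GGGCGG and the core promoter letters TATAAA. The windows are chr8:11312777-11313076 (minus) for Col4a1, chr8:11312555-11312854 (plus) for Col4a2, chr1:82586800-82587099 (minus) for Col4a4, chrX:141475169-141475468 (plus) for Col4a5, chrX:141474027-141474326 (minus) for Col4a6 and chr1:45311288-45311587 (plus) for Col3a1.
Col4a1: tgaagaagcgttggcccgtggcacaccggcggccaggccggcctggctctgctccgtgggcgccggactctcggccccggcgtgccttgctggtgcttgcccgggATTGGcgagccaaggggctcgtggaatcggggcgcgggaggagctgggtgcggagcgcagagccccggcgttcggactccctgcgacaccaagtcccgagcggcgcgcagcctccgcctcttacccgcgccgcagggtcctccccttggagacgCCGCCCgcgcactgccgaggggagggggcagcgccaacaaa
Col4a2: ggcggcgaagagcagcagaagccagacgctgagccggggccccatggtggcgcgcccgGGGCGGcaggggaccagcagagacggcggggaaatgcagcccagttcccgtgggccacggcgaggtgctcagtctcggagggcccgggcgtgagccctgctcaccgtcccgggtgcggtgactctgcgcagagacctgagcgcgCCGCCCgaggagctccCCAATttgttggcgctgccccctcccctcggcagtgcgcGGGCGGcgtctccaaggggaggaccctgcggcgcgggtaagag
Col4a4: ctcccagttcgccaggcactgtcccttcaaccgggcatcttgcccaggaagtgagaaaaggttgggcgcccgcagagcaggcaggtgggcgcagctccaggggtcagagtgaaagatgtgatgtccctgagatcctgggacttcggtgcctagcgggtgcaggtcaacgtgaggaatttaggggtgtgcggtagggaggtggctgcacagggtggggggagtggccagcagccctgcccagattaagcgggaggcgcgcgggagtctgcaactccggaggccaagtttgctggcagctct
Col4a5: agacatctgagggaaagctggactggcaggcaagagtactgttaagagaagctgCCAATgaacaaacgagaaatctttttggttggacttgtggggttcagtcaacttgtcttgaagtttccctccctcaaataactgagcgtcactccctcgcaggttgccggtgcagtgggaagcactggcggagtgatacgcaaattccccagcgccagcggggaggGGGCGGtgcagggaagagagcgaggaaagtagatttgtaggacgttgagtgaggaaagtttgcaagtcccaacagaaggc
Col4a6: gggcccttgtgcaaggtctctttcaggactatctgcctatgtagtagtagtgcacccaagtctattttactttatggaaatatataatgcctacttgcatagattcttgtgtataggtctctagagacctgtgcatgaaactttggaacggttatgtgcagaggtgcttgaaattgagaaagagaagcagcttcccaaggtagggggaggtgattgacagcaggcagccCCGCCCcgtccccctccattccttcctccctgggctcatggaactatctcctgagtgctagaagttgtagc
Col3a1: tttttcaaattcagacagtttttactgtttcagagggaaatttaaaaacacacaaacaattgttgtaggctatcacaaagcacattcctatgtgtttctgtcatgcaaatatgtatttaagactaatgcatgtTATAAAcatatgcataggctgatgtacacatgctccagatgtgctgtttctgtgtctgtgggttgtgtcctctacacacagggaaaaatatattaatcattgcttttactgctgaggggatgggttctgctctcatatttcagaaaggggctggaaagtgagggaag

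Windows of Col4a1 and Col4a2 overlap, so part of one is the reverse complement of the other. The Col4a1 window held 1 CCAAT and 1 GGGCGG, the Col4a2 window 1 and 3, the Col4a5 window 1 of each, the Col4a6 window 1 GGGCGG and the Col4a4 window none of the 3 motifs. The Col3a1 window held 1 TATAAA and neither of the others. Its GC content was 37.7%, against 74.0% and 73.7% for Col4a1 and Col4a2, 63.3% for Col4a4, 52.7% for Col4a5 and 48.3% for Col4a6. Windows were found for 35 of 44 members, 38 windows in all. CCAAT was in 13 of the 38 and in 37.4% of 32851 windows of all genes, GGGCGG in 23 and 35.7%, TATAAA in 5 and 13.6%, and the CArG box, the sequence read by serum response factor, in 1 and 1.63%. A match of letters is a description and says nothing of binding.

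Col4a1 and Col4a2, the common pair, were the most abundant type IV chains. Col4a1 was at 621, 1001 and 1038 CPM in ApoE-/- against 673, 697 and 705 CPM in double mutants. Col4a2 was at 416, 688 and 722 CPM against 504, 516 and 534 CPM. In both, ApoE-/- 1 was the lowest of the 6 libraries and ApoE-/- 2 and 3 the highest. With all libraries the log2 fold changes were -0.36 (SE 0.28, edgeR adjusted p = 0.559) for Col4a1 and -0.23 (SE 0.28, adjusted p = 0.700) for Col4a2. They were -0.56 (SE 0.12, edgeR adjusted p = 0.0208) and -0.45 (SE 0.11, adjusted p = 0.0359) without ApoE-/- 1, and both fell in that fit.

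Col4a5 and Col4a6, the X-linked pair, varied most. Col4a5 was at 61.5, 282 and 389 CPM in ApoE-/- against 109, 96.0 and 107 CPM in double mutants. Col4a6 was at 37.9, 257 and 287 CPM against 90.0, 78.1 and 97.3 CPM. Within ApoE-/- the range was 6.32-fold for Col4a5 and 7.59-fold for Col4a6, and within the double mutants 1.13-fold and 1.25-fold. The log2 fold changes were -1.23 (SE 0.60, edgeR adjusted p = 0.373) and -1.13 (SE 0.67, adjusted p = 0.440) with all libraries. Leaving out ApoE-/- 1 gave -1.69 (SE 0.16, edgeR adjusted p = 0.00252) and -1.62 (SE 0.13, adjusted p = 0.00182). The smooth muscle myosin Myh11 had the same order of libraries, at 1158, 6355 and 8497 CPM in ApoE-/- against 2328, 2031 and 2345 CPM in double mutants. ApoE-/- 1 was also the library with the female pattern of Xist, and neither factor was tested as a source of the X-linked values.

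Col4a3 and Col4a4, known from the glomerular filter and from Alport syndrome, were the scarcest type IV chains. Col4a3 was at 7.63, 31.8 and 28.8 CPM in ApoE-/- against 11.8, 10.6 and 12.5 CPM in double mutants. Col4a4 was at 14.3, 61.5 and 47.7 CPM against 22.6, 20.8 and 24.1 CPM. ApoE-/- 2 and 3 were again high, and without ApoE-/- 1 the log2 fold changes were -1.38 for Col4a3 (SE 0.14, edgeR adjusted p = 0.00286) and -1.28 for Col4a4 (SE 0.15, adjusted p = 0.00379). In the double mutant libraries 6 of 6 kidney tubule markers were called higher, with a sum of 459 to 508 CPM, and all 6 were at 0 in the ApoE-/- libraries. Podocyte markers, of the cell that makes these chains in kidney, summed to 309 to 425 CPM in ApoE-/- against 419 to 461 CPM in double mutants, and 3 of 6 were higher in all double mutant than in all ApoE-/- libraries. With all libraries 0 of 6 were called, and without ApoE-/- 1 there were 2 higher, nephrin (Nphs1) and Podxl, and 1 lower, Synpo. The part of tubule and podocyte transcripts in the type IV values was not tested.

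**Figure D3:**
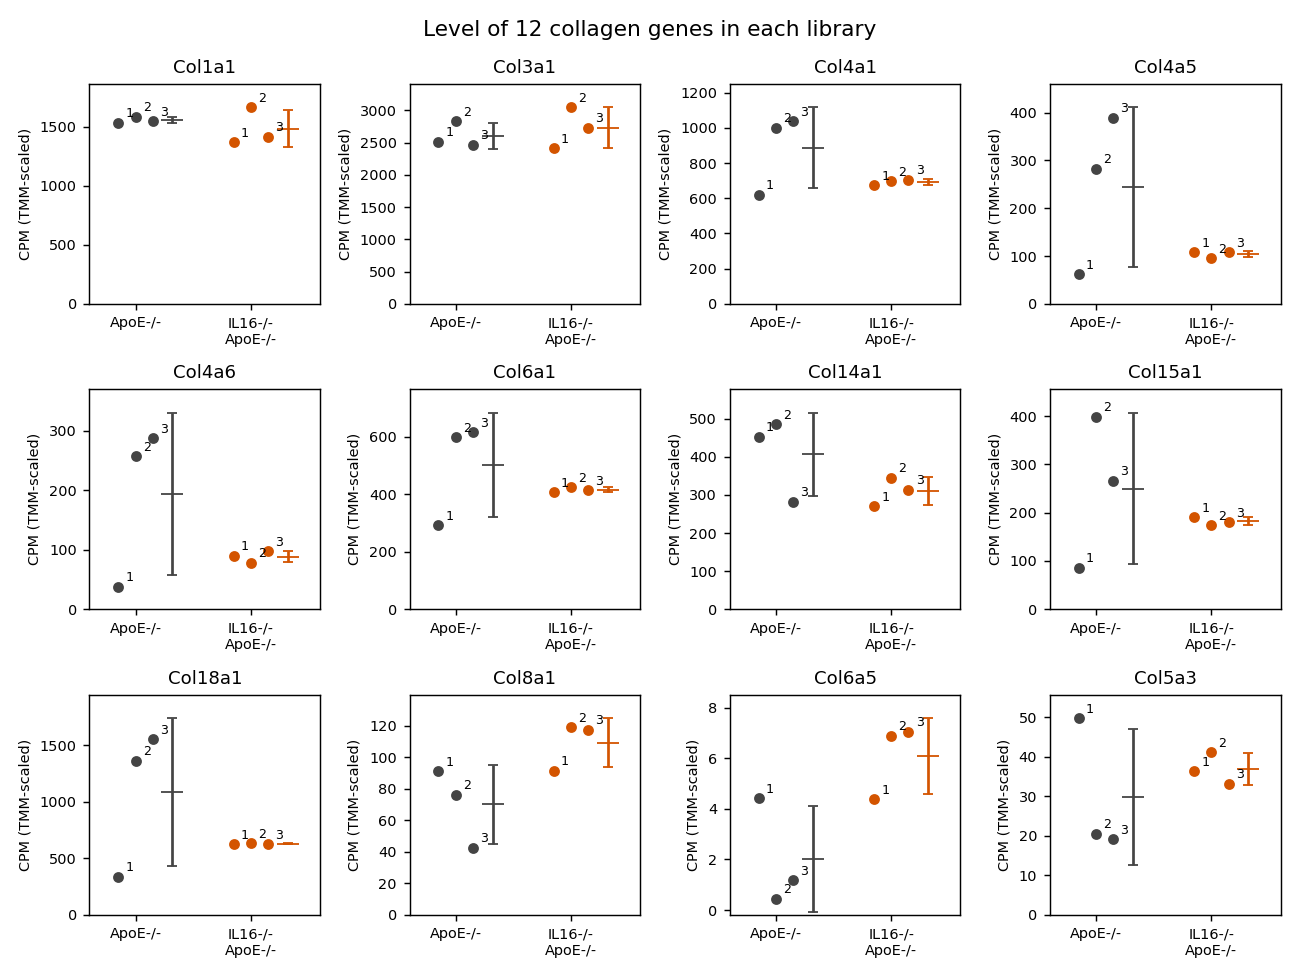
CPM of 12 collagen genes (y axes, linear, TMM-scaled) in each library of the 2 groups (points numbered by sample, with bars for the mean and SD). Col4a5, Col4a6, Col15a1 and Col18a1 are low in ApoE-/- 1 and high in ApoE-/- 2 and 3 with the double mutants between, whereas Col1a1 and Col3a1 overlap closely.

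Ratios between chains were computed for 11 pairs, and 7 of them varied less than 1.5-fold over the 6 libraries. The ratio of Col4a1 to Col4a2 in CPM per kilobase was 1.46, 1.42 and 1.40 in ApoE-/- against 1.30, 1.32 and 1.29 in double mutants. It varied 1.13-fold over 6 libraries, whereas Col4a1 itself varied 1.67-fold. The double mutant values lay below all ApoE-/- values, but a group of 3 against 3 cannot give a two-sided exact permutation p below 0.1, which is the value here (0.275 adjusted over 11 ratios). Col4a3 to Col4a4 ran from 0.602 to 0.714 and Col4a5 to Col4a6 from 1.14 to 1.69, over genes that varied 4.17-fold and 6.32-fold (Col4a3 and Col4a5). In contrast, the ratio of Col4a5 to Col4a1, chains of different molecules, was 0.102, 0.291 and 0.387 in ApoE-/- 1, 2 and 3 against 0.142 to 0.166 in double mutants. That ratio varied 3.79-fold, against 1.13-fold, 1.19-fold and 1.48-fold for the 3 head-to-head pairs. Among genes on different chromosomes, Col1a1 to Col1a2 varied 1.46-fold and Col3a1 to Col1a1, which form different molecules, 1.21-fold, both with overlapping groups. A steady ratio was thus not particular to head-to-head pairs. Col5a1 to Col5a2 was 0.691, 0.734 and 1.18 in ApoE-/- against 0.583, 0.571 and 0.568 in double mutants. Col11a1 to Col11a2 was 0.133, 0.0603 and 0.131 in ApoE-/- against 0.1825, 0.161 and 0.1605 in double mutants, on 50 to 164 counts of Col11a1 a library. The groups did not overlap in either ratio, with the same exact permutation p of 0.1 (0.275 adjusted over 11 ratios).

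The abundant type VI chains varied together across libraries. Col6a1 was at 292, 597 and 615 CPM in ApoE-/- against 407, 425 and 414 CPM in double mutants, and Col6a2, its neighbour on chromosome 10, was at 281, 654 and 588 CPM against 399, 419 and 409 CPM. Their ratio stayed between 0.957 and 1.10 in all 6 libraries. Col6a3, the longest chain of the common type VI molecule, was at 221, 445 and 393 CPM against 294, 339 and 361 CPM. Its ratio to Col6a1 in CPM per kilobase ran from 0.291 to 0.398, a 1.37-fold range, and overlapped between groups. For all 3 chains, ApoE-/- 1 was the lowest library and the double mutants lay between it and ApoE-/- 2 and 3. Without ApoE-/- 1, Col6a1 (log2 fold change -0.55, SE 0.11, edgeR adjusted p = 0.0174) and Col6a2 (-0.60, SE 0.12, adjusted p = 0.0156) fell, and Col6a3 was at -0.34 (SE 0.14, adjusted p = 0.123).

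Col6a4, Col6a5 and Col6a6, which can take the place of Col6a3, lie beside each other on chromosome 9. Col6a5 was at 4.42, 0.445 and 1.19 CPM in ApoE-/- against 4.38, 6.89 and 7.05 CPM in double mutants. The groups met where ApoE-/- 1 and double mutant 1 had nearly the same value, and without ApoE-/- 1 the gene rose by 2.89 on the log2 scale (SE 0.53, edgeR adjusted p = 0.0140), the largest positive change among called members. Col6a4 was at 0.359 to 1.87 CPM against 1.82 to 2.14 CPM, and Col6a6 at 17.6 to 26.2 CPM against 17.9 to 20.3 CPM. Neither was called in either fit.

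**Figure D4:**
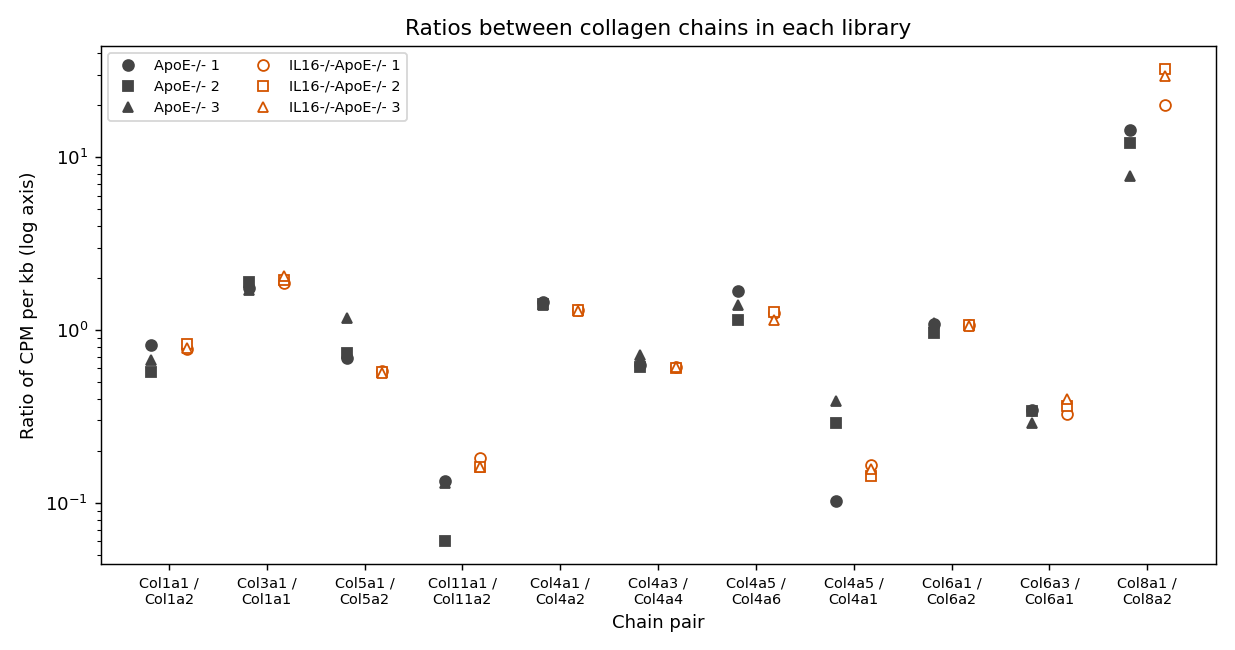
Ratio of CPM per kilobase between 2 collagen chains (y axis, log scale) for 11 chain pairs (x axis) in each ApoE-/- library (filled) and double mutant library (open). Ratios of Col4a1 to Col4a2, Col4a3 to Col4a4 and Col6a1 to Col6a2 span 1.13-fold to 1.19-fold and Col4a5 to Col4a6 spans 1.48-fold, while Col4a5 to Col4a1 spreads from 0.102 to 0.387, and in 4 pairs (Col8a1 to Col8a2, Col5a1 to Col5a2, Col11a1 to Col11a2 and Col4a1 to Col4a2) the groups do not overlap.

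Among FACIT chains, Col14a1, an adventitial fibroblast product that regulates fibril assembly, was the most abundant. It was at 453, 485 and 282 CPM in ApoE-/- against 270.4, 345 and 314 CPM in double mutants, so ApoE-/- 1 and 2 were high and ApoE-/- 3 lay among the double mutants (log2 fold change -0.39, SE 0.28, edgeR adjusted p = 0.508). Summed fibroblast markers were 5961, 7417 and 4088 CPM against 5385 to 5783 CPM, and 0 of 8 markers were called. Within ApoE-/-, both the sum and Col14a1 were highest in sample 2 and lowest in sample 3. Over all 6 libraries the sum was lowest in ApoE-/- 3 and Col14a1 in double mutant 1. The part of fibroblast transcripts in the Col14a1 values was not tested. Col16a1 was the steadiest of this class, at 56.1, 63.9 and 58.6 CPM against 55.9, 59.6 and 58.5 CPM. Col12a1, found in dense connective tissue, was at 58.2, 56.7 and 16.6 CPM against 48.6, 48.5 and 57.2 CPM, where ApoE-/- 3 alone was low.

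The rarer FACIT chains held the smallest unadjusted p-values of all members. Col22a1, a chain of tissue junctions such as that of muscle and tendon, was at 0.525, 0.861 and 0.559 CPM in ApoE-/- against 0.968, 1.89 and 2.40 CPM in double mutants, on 42 to 103 counts a library. The groups did not overlap, with a log2 fold change of 1.43 (SE 0.49, edgeR adjusted p = 0.242). Summed skeletal and cardiac muscle markers were 26.8 to 78.2 CPM against 178 to 531 CPM, with all 8 higher in every double mutant library, and their part in the Col22a1 values was not tested. Col19a1 was at 0.406, 3.61 and 3.96 CPM against 0.484, 0.168 and 0.791 CPM, where ApoE-/- 2 and 3 stood far above the other 4 libraries (log2 fold change -2.47, SE 0.96, edgeR adjusted p = 0.290). With ApoE-/- 1 left out it was -2.98 (SE 0.62, edgeR adjusted p = 0.0198), the largest negative change among called members.

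Col20a1 was the 1 FACIT gene with all double mutants below all ApoE-/- libraries, at 3.59, 3.72 and 3.98 CPM against 4.08, 6.34 and 9.84 CPM (log2 fold change -0.84, SE 0.36, edgeR adjusted p = 0.326). The type IX chains Col9a1, Col9a2 and Col9a3, cartilage chains, were at or under 1.34 CPM in every library. Col9a1 and Col9a2 each had 2 libraries with no count. At most 3 counts are compatible with a count of 0, a limit of 0.0358 to 0.0430 CPM for ApoE-/- libraries and 0.0630 to 0.0698 CPM for double mutant ones, counting error only.

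Of the other chains, the multiplexins Col15a1 and Col18a1, heparan or chondroitin sulfate carrying chains of basement membranes, followed type IV. Col18a1, from which the fragment endostatin is cut, was at 337, 1363 and 1553 CPM in ApoE-/- against 625, 633 and 623 CPM in double mutants. Col15a1 was at 85.7, 398 and 266 CPM against 191, 174 and 181 CPM. In both, the 3 double mutant libraries lay within 1.09-fold of each other (1.02-fold for Col18a1) while the ApoE-/- libraries spanned 4.61-fold for Col18a1 and 4.65-fold for Col15a1. Without ApoE-/- 1, Col18a1 fell by 1.22 on the log2 scale (SE 0.13, edgeR adjusted p = 0.00307) and Col15a1 by 0.87 (SE 0.18, adjusted p = 0.0206). With all libraries the adjusted p was 0.505 and 0.675.

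Type VIII collagen, a short-chain network collagen made by endothelium and by smooth muscle in injured vessels, had fold changes of opposite sign in its 2 chains. Col8a1 was at 91.3, 76.4 and 42.6 CPM in ApoE-/- against 91.5, 119 and 118 CPM in double mutants. Col8a2 was at 5.39, 5.35 and 4.61 CPM against 3.85, 3.13 and 3.35 CPM. The groups did not overlap in either gene, by the narrowest margin in Col8a1 between ApoE-/- 1 and double mutant 1. Neither passed (log2 fold change 0.64, SE 0.30, edgeR adjusted p = 0.354 for Col8a1, and -0.57, SE 0.26, adjusted p = 0.338 for Col8a2), with or without ApoE-/- 1. The ratio of Col8a1 to Col8a2 in CPM per kilobase was 14.3, 12.1 and 7.84 in ApoE-/- and 20.2, 32.3 and 29.8 in the double mutants, with an exact permutation p of 0.1, the smallest that 3 against 3 can give (0.275 adjusted over 11 ratios). All 6 endothelial markers had every double mutant above every ApoE-/- library (background 14.9%), as did Col8a1 but not Col8a2. Their sum was 562 to 990 CPM against 1144 to 1190 CPM. With all libraries 0 of 6 were called, and without ApoE-/- 1 all 6 were higher, where 13.1% of all tested genes were called higher. The part of endothelial transcripts in the type VIII values was not tested.

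The remaining chains were mostly scarce. Col10a1, the hypertrophic cartilage chain, was at 3.41, 1.41 and 0.323 CPM against 2.52 to 2.83 CPM. Col7a1, of the anchoring fibrils under epithelia, was at 2.86, 3.54 and 6.55 CPM against 2.65 to 2.88 CPM. Col28a1, a chain of peripheral nerve, was at 1.66, 1.69 and 4.51 CPM in ApoE-/- against 4.58 to 4.74 CPM in double mutants, above every ApoE-/- library by a small margin over ApoE-/- 3. Summed Schwann cell markers were 180 to 225 CPM against 290 to 334 CPM, with 5 of 6 higher in every double mutant library (background 14.9%). The other, Pmp22, was the largest part of the ApoE-/- sums and overlapped between groups (120, 164 and 179 against 144, 149 and 143 CPM). The part of Schwann cell transcripts in the Col28a1 values was not tested.

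Transmembrane chains were low as well. Col23a1 was the most abundant and did not overlap between groups, with 12.8 to 14.8 CPM in ApoE-/- and 15.3 to 17.0 CPM in double mutants (log2 fold change 0.20, SE 0.16, edgeR adjusted p = 0.554). Col13a1 was at 0.322, 0 and 0.559 CPM against 1.06, 2.01 and 0.838 CPM. The 3 members left out by the count filter, which asks for counts in several libraries, were Col17a1, Col25a1 and Col26a1. Col17a1, the hemidesmosome collagen of skin and other epithelia, had 373, 417 and 0 counts in ApoE-/- 1, 2 and 3 and 7, 0 and 0 in the double mutants, so nearly all its counts came from 2 libraries. Col25a1 and Col26a1 had at most 18 counts in any library.

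Collagen chains need hydroxylation, glycosylation and folding in the endoplasmic reticulum, and of 22 genes listed for these steps 21 were found and tested. With all libraries 0 passed by edgeR, with a median log2 fold change of -0.21. The members with the smallest p were Ppib, the folding isomerase cyclophilin B, the collagen galactosyltransferase Colgalt2 and the lysyl hydroxylase Plod2. Ppib was at 130, 115 and 140.2 CPM in ApoE-/- against 184, 203 and 182 CPM in double mutants, without overlap (log2 fold change 0.57, SE 0.17, edgeR adjusted p = 0.194). Colgalt2 had 0.502 to 1.87 CPM in ApoE-/- and 2.44 to 3.82 CPM in double mutants, again without overlap (log2 fold change 1.51, SE 0.59, edgeR adjusted p = 0.289). Plod2 was at 54.8, 121 and 131 CPM in ApoE-/- and 64.1 to 69.3 CPM in double mutants (a log2 fold change of -0.61, SE 0.32, edgeR adjusted p = 0.402), in the library order of type IV collagen. In the fit without ApoE-/- 1, 2 of 21 rose, Ppib and Colgalt2, where 13.1% of all tested genes were called higher, and 8 fell, where 12.8% were called lower, among them Plod2 (log2 fold change -0.91, SE 0.10, edgeR adjusted p = 0.0032) and, chosen after its value was seen, the prolyl 3-hydroxylase P3h2 (-1.30, SE 0.20, adjusted p = 0.00769).

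After secretion, proteases trim procollagen and lysyl oxidases crosslink it. Of 15 genes listed, 14 were tested and 2 rose with all libraries, the meprins Mep1a and Mep1b. Both had no count in any ApoE-/- library, and Mep1a was at 15.1, 15.2 and 16.4 CPM and Mep1b at 2.42, 2.65 and 3.89 CPM in the double mutants (edgeR adjusted p = 0.00642 and 0.0209). Meprins can cut procollagen, and they are also abundant enzymes of the kidney brush border. The 6 kidney tubule markers were likewise at 0 in every ApoE-/- library and present in every double mutant library. Their part in the meprin values was not tested. Further genes of this list were chosen after their values were seen. The lysyl oxidase Lox was at 196, 406 and 468 CPM against 186, 210 and 191 CPM (log2 fold change -0.86, SE 0.34, edgeR adjusted p = 0.295), and its relative Loxl1 was at 187, 287 and 309 CPM against 170.1, 170.5 and 174 CPM, without overlap (-0.61, SE 0.24, adjusted p = 0.291). Without ApoE-/- 1 the 2 meprins rose (2 of 14, against 13.1% of all tested genes). In that fit 4 of 14 fell, against 12.8%, namely Lox (log2 fold change -1.16, SE 0.12, edgeR adjusted p = 0.00306), Loxl1 (-0.80, SE 0.10, adjusted p = 0.00457), Loxl3 and the procollagen peptidase enhancer Pcolce2.

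Of 10 collagen receptors, 0 passed with all libraries, and the median log2 fold change was -0.45. Itga1, the integrin chain that binds collagen IV, was at 119, 202 and 212 CPM in ApoE-/- against 113, 102 and 104 CPM in double mutants, without overlap (log2 fold change -0.74, SE 0.25, edgeR adjusted p = 0.238). The discoidin receptor Ddr2 was at 171, 396 and 307 CPM against 196, 199.7 and 200.01 CPM, and the shared chain Itgb1 at 634, 1649 and 1607 CPM against 794, 801 and 809 CPM. In both, ApoE-/- 1 was the lowest library and ApoE-/- 2 and 3 were the highest. Without ApoE-/- 1, 5 of 10 fell, against 12.8% of all tested genes. They were Itga1, Itga10, Itgb1, Ddr1 and Ddr2, of which Itga10 and Ddr1 are named for having passed in that fit.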

How the data were processed

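Polyadenylated RNA was captured from TRIzol extracts and made into strand-marking libraries, per the labels' protocols. The authors deposited 1 file of unnormalized counts for each gene. Per the submitters' processing notes the tools were Cutadapt, HISAT2 and StringTie. Their versions, the build, the annotation, the counter and its strand setting were not given in the sources used here. Without strand, reads of overlapping genes, such as Col4a3 (563 exon bases shared with C430014B12Rik) and Col9a3 (234 with Tcfl5), cannot be told apart.

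Of 55401 gene IDs, 55141 matched a symbol in GENCODE M21 (GRCm38), which also gave positions and lengths (median over basic transcripts). Genes were kept by filterByExpr (minimum count 10, total 15) and 19833 were tested with edgeR's quasi-likelihood test (TMM, robust, two-sided, no covariate, Benjamini-Hochberg, threshold 0.05). CPM values are TMM-scaled, and the SE is the log2 fold change over the root of F. Alternatives were other scalings, filters, DESeq2, limma-voom, a length trend offset (lowess span 0.3), a replicate block and leaving out each library. The fit was tested on simulated data with known changes. At the dispersion of these data it recovered 2 of 94 genes changed by 1 on the log2 scale and 45 of 96 changed by 2. At a dispersion of 0.04 it recovered 62 of 98 and 98 of 99. Most changes of 1 on the log2 scale would thus be missed with all 6 libraries. R 4.3.3, edgeR 4.0.16, limma 3.58.1, DESeq2 1.42.0, Python 3.11.15 and matplotlib 3.10.9 were used. Members and gene lists were chosen with earlier results of these data known. By the naming rule, library values are given for called members, the 3 most abundant of each class, partner chains and up to 4 others of smallest p, and for called genes of each pathway list or, with none called, the 3 of smallest p; values of other members complete the account.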

Additional observations from a re-analysis of the deposited data

How the results depend on the processing

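Over 16 alternatives, 649 log2 fold changes of the 41 tested members gave 605 with direction and side of the threshold kept, 23 newly past it and 21 of opposite sign, the last in 11 members. Counts of called members were 0 higher and 0 lower under every alternative but 2. Leaving out any 1 double mutant library called 0 genes of the whole table, as did the replicate block. The 0 members in those fits therefore say nothing particular to collagen genes. Limma-voom with sample weights called 1 higher and 6 lower, and leaving out single libraries gave 0 to 2 higher and 0 to 14 lower, with both upper values from leaving out ApoE-/- 1. Signs turned in limma-voom for Col9a1 (0.30), with sample weights for Col9a2 (-1.01), Col5a2 (-0.15) and Col3a1 (-0.019), and with the length trend removed for Col1a1 (0.11), Col16a1 (0.13) and Col6a3 (0.17). Leaving out single libraries gave -0.054 to 1.70 for Col2a1, -0.56 to 1.01 for Col9a2, -0.021 to 0.44 for Col5a2, -0.080 to 0.021 for Col16a1, -0.87 to 0.057 for Col15a1, -0.34 to 0.12 for Col6a3, -1.18 to 0.42 for Col9a1, -0.16 to 0.49 for Col12a1, -0.081 to 0.54 for Col9a3 and -0.015 to 0.15 for Col3a1. None of these passed in the direction it turned to, and the cause was not tested. A fit without 1 library leaves 2 in its group and pools the spread of both groups.

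The replicate block, with the numbers 1 to 3 of the titles as a block, called 0 members higher and 0 lower, and 0 genes in all. Same-numbered libraries did not deviate together (correlations -0.04, -0.03 and -0.01). With 3 libraries a group these values cannot exclude a shared batch, and the labels do not state that a number pairs samples. The median of all tested genes moved from -0.05 to -0.12 on the log2 scale with no filter on low counts. A member that did not pass may still differ, given the spread among ApoE-/- libraries.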
